A study of Mus musculus with 10 samples.

Results

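Cholesterol synthesis and its control by SREBP2 were examined as a module of 27 genes, ordered by pathway step. The genes were picked by symbol from pathway knowledge, with earlier results of these data known. Shares of members set beside those of all tested genes are therefore descriptions. The members are 27 of 55866 genes in the count table. All 27 had counts in each of the 10 libraries, and all 27 passed the expression filter, as did 15767 genes in all. By role, 6 genes encode SREBP2 and its processing machinery, 6 act in the mevalonate arm, 2 make the prenyl chains, 11 act in the sterol arm, and 2 transport sterols or bind them.

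The samples were sorted iKCs, a mouse cell line named only by that abbreviation in the labels, and were profiled by bulk RNA sequencing of polyadenylated RNA. Each group carried 1 lentiviral (LV) vector: 3 libraries overexpressed miR-342-3p, 2 had its mutated control, 3 had a sponge that binds the microRNA and 2 had a scramble control sponge. All were sorted as viable, mOrange-positive cells, so every group had been transduced and carried the fluorescent marker. The question was which genes differ when the microRNA is added, or is sequestered by the sponge, relative to the control vectors. The promoters of the vectors, the number of clones behind the line and the time after transduction are not given in the sources used here.

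Cells make cholesterol from acetyl-CoA through mevalonate, isoprenoid chains, squalene, lanosterol and a series of sterol intermediates. The transcription factor SREBP2 is made as a membrane protein of the endoplasmic reticulum, where Insig proteins hold its escort Scap back while sterols are plentiful. When sterols fall, Scap carries SREBP2 to the Golgi, where the site-1 and site-2 proteases release its active part, which raises transcription of the synthesis enzymes. In macrophages the pathway stands beside a large uptake of cholesterol from engulfed material.

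The total count per library was 25712732 to 59259988 with overexpression, 41333662 to 47004171 in the mutated control, 43089031 to 50981542 with the sponge and 33857272 to 57707734 in the scramble control. Levels are given as CPM (counts scaled to depth), with depth corrected by TMM factors. The labels were checked on reads of the Mir342 hairpin, which came to 8.22, 11.3 and 9.41 CPM with overexpression and 2.86 and 3.22 CPM in the mutated control. There were 0 reads in every sponge and scramble library, so this check cannot tell sponge from scramble. Reads of the hairpin gene are not a measure of the mature microRNA. The macrophage and Kupffer cell list (11 genes) summed to 2549 to 2807 CPM with overexpression, 2742 to 3030 CPM in the mutated control, 2803 to 3133 CPM with the sponge and 2903 to 3114 CPM in the scramble control. The defining Kupffer cell genes Clec4f and Timd4 had 0 reads in all 10 libraries. Summed hepatocyte markers (3 genes) stayed at or below 0.0484 CPM and summed endothelial markers (4 genes) lay between 3.501 and 4.39 CPM. The deposited table has the counts of sponge library 3 and of scramble library 1 in 1 joined field, and both were recovered by splitting it. Some of the results that rest on them, mainly for the sponge and the difference of effects, are also given without both. In bulk samples, fewer cells of a type and less RNA per cell cannot be told apart.

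The overexpressed microRNA and the sites for it in the members set the frame for the counts. The mature sequences are shown 5′ to 3′ from RefSeq (GRCm38.p6), with the seed, bases 2 to 8, in capitals. The hairpin yields both arms, of which the labels name the 3p arm.
mmu-miR-342-3p: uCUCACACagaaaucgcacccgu
mmu-miR-342-5p: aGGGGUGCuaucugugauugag
Target sites were read from the longest 3′ UTR that GENCODE vM21 (GRCm38) gives a member, and the windows below show the site in capitals. Shown are 3 of the 4 members with a 3p site of the 8mer or 7mer-m8 class, plus Srebf2 and Dhcr7, the factor and the member with the lowest p, for the 5p arm.
Insig2, 3p arm, 8mer: ttctgttttgaGTGTGAGAgaa
Idi1, 3p arm, 7mer-m8: ttagtcataatGTGTGAGtgag
Lss, 3p arm, 7mer-m8: atcctttttggGTGTGAGctct
Srebf2, 5p arm, 7mer-m8: acttgatagacGCACCCCtttt
Dhcr7, 5p arm, 7mer-m8: acccccccgccGCACCCCcccc
For the 3p arm, 4 of 27 members (14.8%) held a site of the 8mer or 7mer-m8 class, against 15.2% of 11916 tested genes with a UTR. These were Insig2, Idi1, Lss and Stard4. Sites of the same classes for the 5p arm stood in 5 of 27 members (18.5%), against 7.75% of tested genes, and were in Srebf2, Idi1, Msmo1, Hsd17b7 and Dhcr7. The median UTR length was 972 bases for members and 1130.5 bases for tested genes.

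The promoters were searched for motifs as a description, and a link between motifs and the levels of the members was not tested. RefSeq promoter windows of GRCm38.p6 (250 bases before to 50 after the start) matched 23 of 27 members by symbol. Windows are printed on the strand of the gene, with capitals for the sterol regulatory element (SRE) core TCACNCCAC and for CCAAT on either strand (ATTGG is its reverse). Hmgcs1 is shown as the member with an SRE core, Idi1 as one with CCAAT and no SRE core, and Dhcr7 as the called member.
Hmgcs1, chr13:119690101-119690400, plus strand: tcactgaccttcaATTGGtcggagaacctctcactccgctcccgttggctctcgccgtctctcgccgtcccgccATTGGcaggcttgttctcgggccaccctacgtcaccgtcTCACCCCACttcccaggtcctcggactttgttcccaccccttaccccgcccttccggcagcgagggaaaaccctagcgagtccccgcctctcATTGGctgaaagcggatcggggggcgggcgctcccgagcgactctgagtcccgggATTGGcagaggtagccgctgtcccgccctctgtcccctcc
Idi1, chr13:8885356-8885655, plus strand: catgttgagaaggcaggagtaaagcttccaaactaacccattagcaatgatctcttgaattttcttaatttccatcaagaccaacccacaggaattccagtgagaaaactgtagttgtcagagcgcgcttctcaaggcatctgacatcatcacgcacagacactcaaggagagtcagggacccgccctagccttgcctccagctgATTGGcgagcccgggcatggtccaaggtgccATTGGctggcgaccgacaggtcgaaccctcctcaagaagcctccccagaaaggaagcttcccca
Dhcr7, chr7:143822917-143823216, plus strand: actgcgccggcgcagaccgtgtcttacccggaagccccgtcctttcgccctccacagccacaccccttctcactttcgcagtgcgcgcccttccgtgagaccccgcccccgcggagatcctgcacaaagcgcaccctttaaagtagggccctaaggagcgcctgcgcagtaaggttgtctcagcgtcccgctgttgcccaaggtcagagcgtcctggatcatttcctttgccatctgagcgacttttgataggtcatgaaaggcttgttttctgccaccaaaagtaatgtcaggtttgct
The SRE core was found in 1 of 23 member promoters (4.35%), against 1.07% of 10514 tested promoters, and its start in Hmgcs1 lies at position -137 from the start site. CCAAT stood in 18 of 23 (78.3%), against 39.1% of tested promoters, and Hmgcs1 held 4 copies. The GC box GGGCGG stood in 19 of 23 (82.6%), against 62.6%, and the E-box CACGTG in 4 of 23 (17.4%), against 10.04%. All motifs were searched on both strands, and matches may overlap each other. Neither an SRE core nor a CCAAT box was among the letters of the Dhcr7 window. A match is a description of letters and not a measured binding site. A window without a match may still hold a site, since only these strings were searched, in 1 window per gene.

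Per length, the members spanned a wide range of levels. In TPM (transcript abundance scaled for length and depth), as a mean over the 10 libraries, Insig1, which retains Scap, stood highest at 410 TPM. Tmem97, which encodes a sterol-binding endoplasmic reticulum protein, followed at 151 TPM and Srebf2 itself at 149 TPM. Acat2, the thiolase at the head of the pathway, had 97.2 TPM, and Hmgcs1, which makes HMG-CoA, had 81.2 TPM. The lowest were Tm7sf2, a sterol reductase, at 8.45 TPM and Fdps, which makes farnesyl diphosphate, at 5.87 TPM. The levels of members that share sequence with other genes are uncertain. Of their 50-mers, Fdps shares 77.3% with Gm43738, Acat2 45.9% with Acat3, Idi1 21.3% with Gm13502, Tmem97 20.8% with Gm5809 and Fdft1 10.9% with Gm6781. Exons of Fdps also overlap those of Gm43738, on the same strand, over 26.7% of their length. Reads that fall in both genes can be left uncounted, so the rank of Fdps as the lowest is uncertain.

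**Figure D1:**
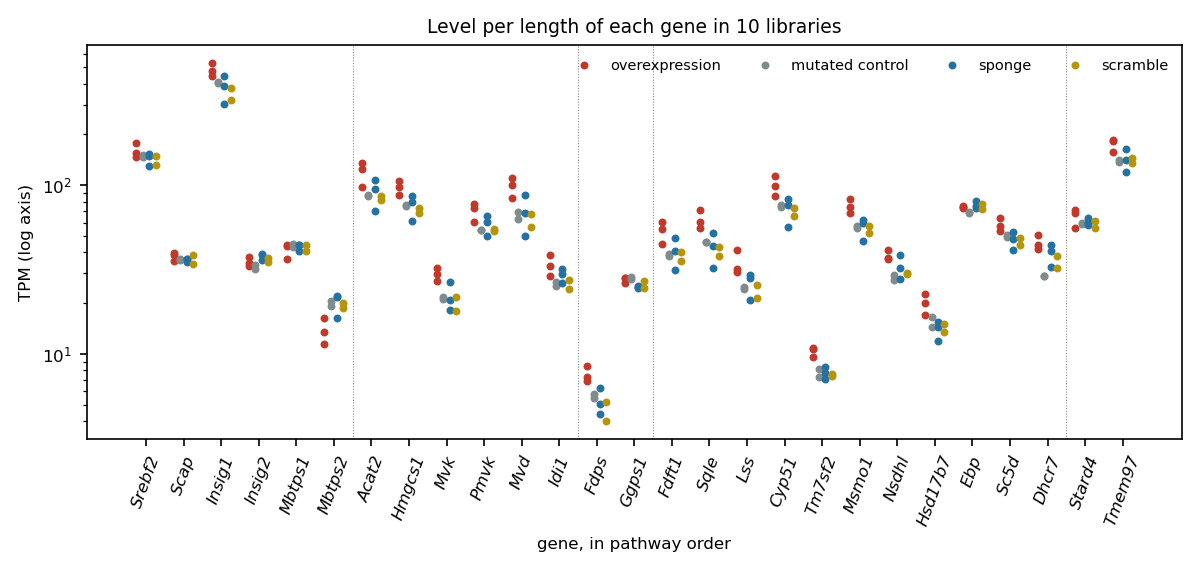
Level per length in TPM (log axis) of the 27 genes in pathway order, with 1 point per library and groups ordered overexpression, mutated control, sponge and scramble. Insig1 stands highest, with a mean of 410 TPM over the 10 libraries, and Fdps lowest at 5.87 TPM. The level of Fdps is uncertain, since it shares sequence with Gm43738.

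Most enzyme genes of the pathway had higher counts in the overexpression libraries than in the libraries of either control, though 1 passed the test. Against the mutated control, all 19 enzyme genes had positive differences, with a median of 0.48 on the log2 scale. The median was 0.12 over the 6 processing genes and -0.01 over all 15767 tested genes. With edgeR's quasi-likelihood test and Benjamini-Hochberg adjustment over all tested genes, 1 of 27 members was called higher (Dhcr7) and 0 lower, beside 0.539% of all tested genes called. At an unadjusted p under 0.05 there were 21 members, 20 of them higher, against 2874 of all tested genes. DESeq2 called 6 higher and 1 lower, beside 3.84% of its genes with an adjusted p. In 25 of 27 members every overexpression library was above both mutated control libraries, beside 18.9% of all tested genes. In 1 member, Mbtps2, every overexpression library was below them, beside 19.3%.

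**Figure D2:**
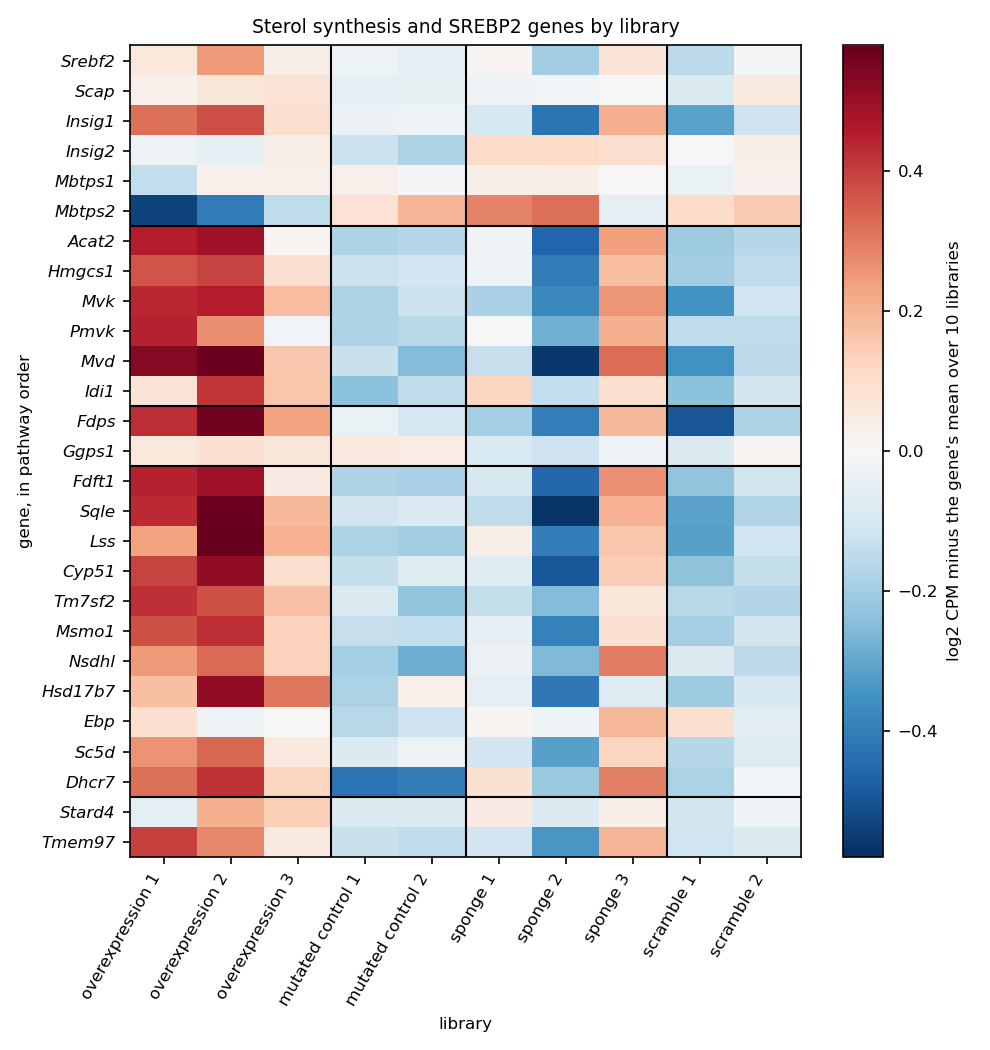
Each cell is the log2 CPM of a gene in 1 library minus that gene's mean over the 10 libraries, with genes in pathway order and lines between roles and groups. Overexpression libraries 1 and 2 and sponge library 3 are high across the enzymes, sponge library 2 is low, and Mbtps2 runs the other way.

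Among the processing genes, Srebf2, the factor itself, had 310, 353 and 305 CPM with overexpression, 292 and 288 CPM in the mutated control, 301, 259 and 314 CPM with the sponge and 268 and 295 CPM in the scramble control. Its values are given although the rule for named genes did not take it. Every overexpression library lay above every control library, and sponge library 3 lay inside the overexpression range. The difference was 0.16 ± 0.09 (log2, SE; edgeR adjusted p = 0.383) against the mutated control and 0.20 ± 0.09 (adjusted p = 0.386) against scramble. Scap, the escort, averaged 79.1 ± 1.43 CPM with overexpression and 73.4 ± 0.472 CPM in the mutated control (SD, n = 3 and 2). In the scramble control Scap averaged 75.2 ± 4.88 CPM (SD, n = 2), and its libraries overlapped those with overexpression. The Scap difference was 0.11 ± 0.06 against the mutated control and 0.07 ± 0.06 against scramble (log2, SE, edgeR adjusted p = 0.345 and 0.615).

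Insig1, itself a well-known SREBP2 target, had 435, 452 and 373 CPM with overexpression, 340 and 343 CPM in the mutated control, 327, 260 and 403 CPM with the sponge, and 282 and 321 CPM in the scramble control. All overexpression libraries were above all control libraries, and sponge library 3 was above overexpression library 3. The difference was 0.30 ± 0.15 against the mutated control (log2, SE; edgeR adjusted p = 0.319) and 0.48 ± 0.15 against scramble (adjusted p = 0.262).

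Insig2, the second retention factor and the carrier of the 3p 8mer site shown above, had 33.6, 33.1 and 35.3 CPM with overexpression, 31.5 and 30.4 CPM in the mutated control, 37.0, 37.1 and 36.6 CPM with the sponge, and 34.3 and 35.3 CPM in the scramble control. The overexpression libraries were above the mutated control, overlapped scramble and were below every sponge library. The difference was 0.13 ± 0.06 against the mutated control and -0.04 ± 0.06 against scramble (log2, SE; edgeR adjusted p = 0.265 and 0.818). Mbtps1, the site-1 protease, had differences of -0.04 ± 0.07 and -0.02 ± 0.07 in the same order.

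Mbtps2, the site-2 protease that makes the final cut releasing SREBP2, ran against the enzymes. In the coordinates of the deposited table it spans 156318367 to 156381711 of chromosome X, minus strand. It had 34.2, 37.5 and 44.7 CPM with overexpression, 52.7 and 56.8 CPM in the mutated control, 60.6, 61.8 and 47.8 CPM with the sponge, and 53.5 and 55.1 CPM in the scramble control. All 3 overexpression libraries were lower than each of the 7 others, as in 3.38% of all tested genes. The difference was -0.50 ± 0.12 against the mutated control and -0.49 ± 0.12 against scramble (log2, SE), and neither passed the test (edgeR adjusted p = 0.102 and 0.190). DESeq2 called both. Over 18 alternatives the adjusted p against the mutated control ran from 8.25e-06 to 0.488, with 4 calls. Its exons overlap those of Yy2, on the same strand, over 28.4% of their length, and Yy2 had 0 reads. Reads that fall in both genes can be left uncounted for both, so the 0 does not show whether Yy2 is transcribed. A 3p site of the weaker 7mer-A1 class stands in its UTR, as in 29.6% of members and 24.2% of tested genes with a site of any class.

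In the mevalonate arm all 6 enzymes were above 0 against the mutated control, with log2 differences between 0.41 and 0.62, and none passed the edgeR test. Mvk, mevalonate kinase, had 23.5, 23.8 and 19.6 CPM with overexpression, 15.3 and 15.9 CPM in the mutated control, 15.2, 13.4 and 20.7 CPM with the sponge, and 13.6 and 16 CPM in the scramble control. Mvd, which decarboxylates mevalonate diphosphate to isopentenyl diphosphate, had 55.1, 56.4 and 42.4 CPM with overexpression, 34.7 and 32.0 CPM in the mutated control, 34.7, 25.8 and 47.5 CPM with the sponge, and 29.8 and 34.2 CPM in the scramble control. For both genes the overexpression libraries were above all 4 control libraries, and sponge library 3 lay above the lowest of them. Their differences against the mutated control were 0.52 ± 0.16 for Mvk and 0.62 ± 0.21 for Mvd (log2, SE; edgeR adjusted p = 0.154 and 0.175).

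Idi1, the isomerase that makes the primer of the isoprenoid chain and that carries sites for both arms, had 29.8, 37.6 and 31.6 CPM with overexpression, 23.9 and 25.5 CPM in the mutated control, 30.8, 25.6 and 30.2 CPM with the sponge, and 24.0 and 26.3 CPM in the scramble control. Overexpression library 1 was below sponge libraries 1 and 3 but above every control. The difference against the mutated control was 0.42 ± 0.11 (log2, SE; edgeR adjusted p = 0.122). The other 3 enzymes of this arm, Acat2, Hmgcs1 and Pmvk, had means of 85.4, 125 and 33.9 CPM with overexpression, and 59.97, 94.6 and 25.4 CPM in the mutated control.

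The prenyl branch split. Fdps had 9.03, 9.90 and 7.90 CPM with overexpression, 6.53 and 6.27 CPM in the mutated control, 5.85, 5.10 and 7.64 CPM with the sponge and 4.76 and 5.92 CPM in the scramble control. Its overexpression libraries were above all others, and the difference was 0.49 ± 0.17 against the mutated control and 0.74 ± 0.17 against scramble (log2, SE; edgeR adjusted p = 0.179 and 0.183). Ggps1, which makes the longer geranylgeranyl chain used on proteins, had 36.3, 36.9 and 36.3 CPM with overexpression, 36.1 and 35.8 CPM in the mutated control, 32.7, 32.0 and 34.2 CPM with the sponge and 32.8 and 35.1 CPM in the scramble control. Its means were 36.5 CPM with overexpression and 36 CPM in the mutated control, a log2 difference of 0.02 ± 0.06.

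In the sterol arm, which turns farnesyl diphosphate into squalene, lanosterol and cholesterol, all 11 enzymes were above 0 and 1 rose. Dhcr7, the reductase of the last step from 7-dehydrocholesterol, spans 143376882 to 143402147 of chromosome 7, plus strand, in the coordinates of the deposited table. It had 75.9, 81.4 and 66.3 CPM with overexpression, 45.3 and 46.1 CPM in the mutated control, 64.8, 52.4 and 74.5 CPM with the sponge, and 53.5 and 60.2 CPM in the scramble control. The mutated control was the lowest group, with both libraries below all 8 others, and sponge library 3 lay inside the overexpression range. Dhcr7 rose by 0.71 ± 0.13 against the mutated control (log2, SE; 1.63-fold; edgeR adjusted p = 0.0489).

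The Dhcr7 call was not made against the other control, and it was lost when some single libraries were left out. Against scramble the Dhcr7 difference was 0.39 ± 0.13 (edgeR adjusted p = 0.280), and the mutated control minus scramble was -0.32 ± 0.14 (adjusted p = 0.772), or adjusted p = 0.00235 when only those 2 groups entered the fit, where 574 of all genes were called, with 1 call in 18 alternatives and adjusted p up to 1.00 among them. Of 18 alternative settings 8 kept the Dhcr7 call against the mutated control. Over all 18, the edgeR, DESeq2 or limma-voom adjusted p lay between 2.85e-12 and 0.399 and the log2 difference between 0.65 and 0.79. It was lost without overexpression library 1 or 2, without either mutated control library, without sponge library 1, without either scramble library, with DESeq2 size factors and with either replicate block (adjusted p = 0.245 and 0.284). With either replicate block 0 of all tested genes were called in that comparison.

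**Figure D3:**
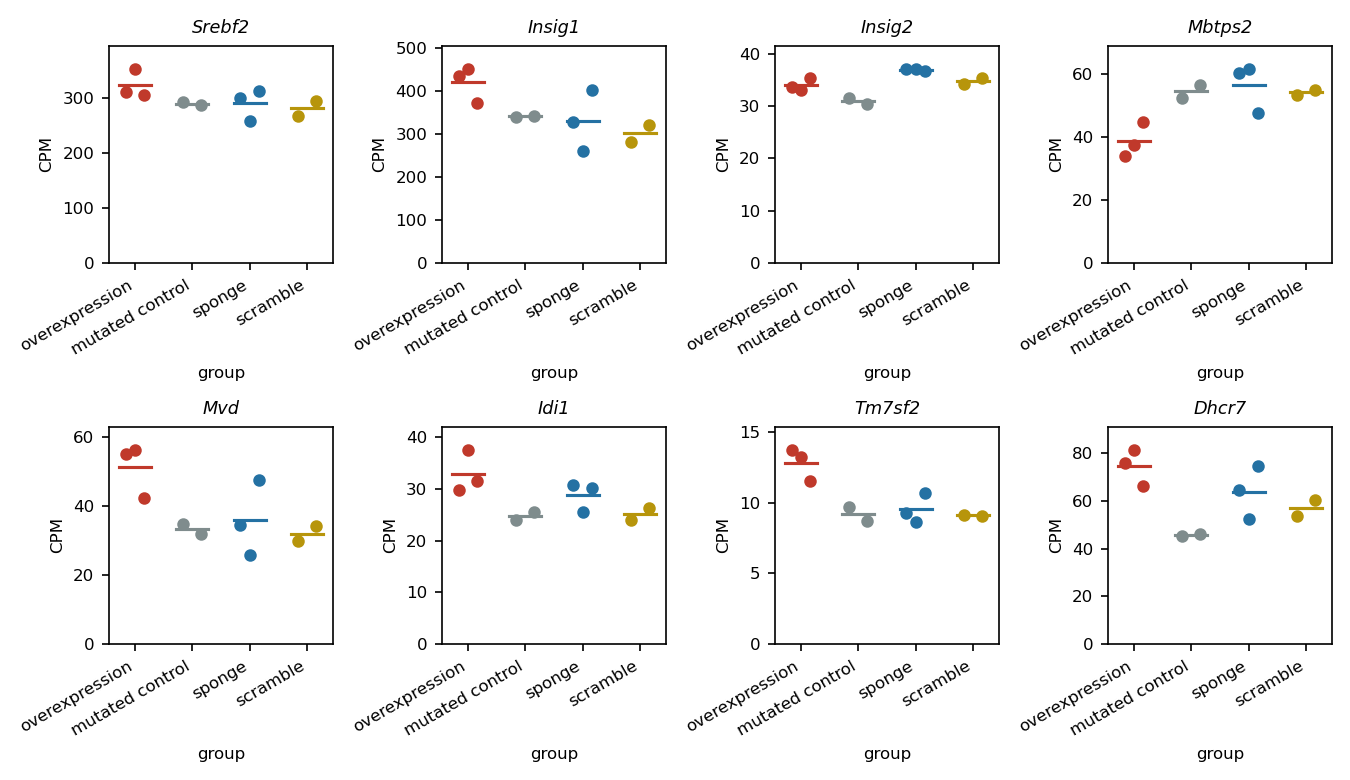
CPM per library for 8 genes, with points for libraries and a line at each group's mean, and every vertical axis starting at 0. Mbtps2 is lowest with overexpression (34.2 to 44.7 CPM), while Dhcr7 is lowest in the mutated control (45.3 and 46.1 CPM).

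Tm7sf2, which reduces the double bond left by the Cyp51 step, had 13.7, 13.2 and 11.5 CPM with overexpression, 9.66 and 8.73 CPM in the mutated control, 9.29, 8.61 and 10.7 CPM with the sponge, and 9.16 and 9.08 CPM in the scramble control. All overexpression libraries were above all 7 others. The difference was 0.49 ± 0.11 against the mutated control and 0.50 ± 0.11 against scramble (log2, SE; edgeR adjusted p = 0.0858 and 0.175). Its exons overlap those of Vps51, on the same strand, over 12.1% of their length, so strand, which was not used in counting, could not separate them.

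Nsdhl, an enzyme of the removal of the C4 methyl groups, had 30.8, 32.7 and 28.6 CPM with overexpression, 22.7 and 21.4 CPM in the mutated control, 25.4, 21.8 and 31.9 CPM with the sponge, and 24.5 and 23.4 CPM in the scramble control. The overexpression libraries were above all 4 controls, with sponge library 3 among them, and the difference was 0.48 ± 0.13 against the mutated control (log2, SE; edgeR adjusted p = 0.127). Of the remaining sterol arm genes, Fdft1 (squalene synthase), Sqle (squalene epoxidase) and Lss (lanosterol synthase) had log2 differences of 0.53, 0.50 and 0.54 against the mutated control. Cyp51 (lanosterol demethylase), Msmo1 and Hsd17b7 (removal of C4 methyl groups) had 0.45, 0.45 and 0.41. Ebp (the sterol isomerase) and Sc5d (the C5 desaturase) had the smallest, 0.17 and 0.28. Exons of Fdft1 overlap the antisense gene Ctsb over 18.8% of their length, and Ctsb had far more reads (3443139 against 22410 over all libraries).

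In the transport group, Tmem97 had 75.4, 69.6 and 59.4 CPM with overexpression, 52.4 and 51.8 CPM in the mutated control, 53.2, 45.3 and 65.6 CPM with the sponge, and 52.9 and 54.2 CPM in the scramble control. Stard4, a soluble carrier that moves cholesterol between membranes, had 91.5, 110 and 105 CPM with overexpression, 89.7 and 90.0 CPM in the mutated control, 98.3, 90.1 and 97.4 CPM with the sponge, and 88.5 and 93.6 CPM in the scramble control. For Tmem97 all overexpression libraries were above all controls, while Stard4 in overexpression library 1 was below 1 scramble library. The differences against the mutated control were 0.39 ± 0.14 and 0.18 ± 0.08 (log2, SE; edgeR adjusted p = 0.188 and 0.264).

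**Figure D4:**
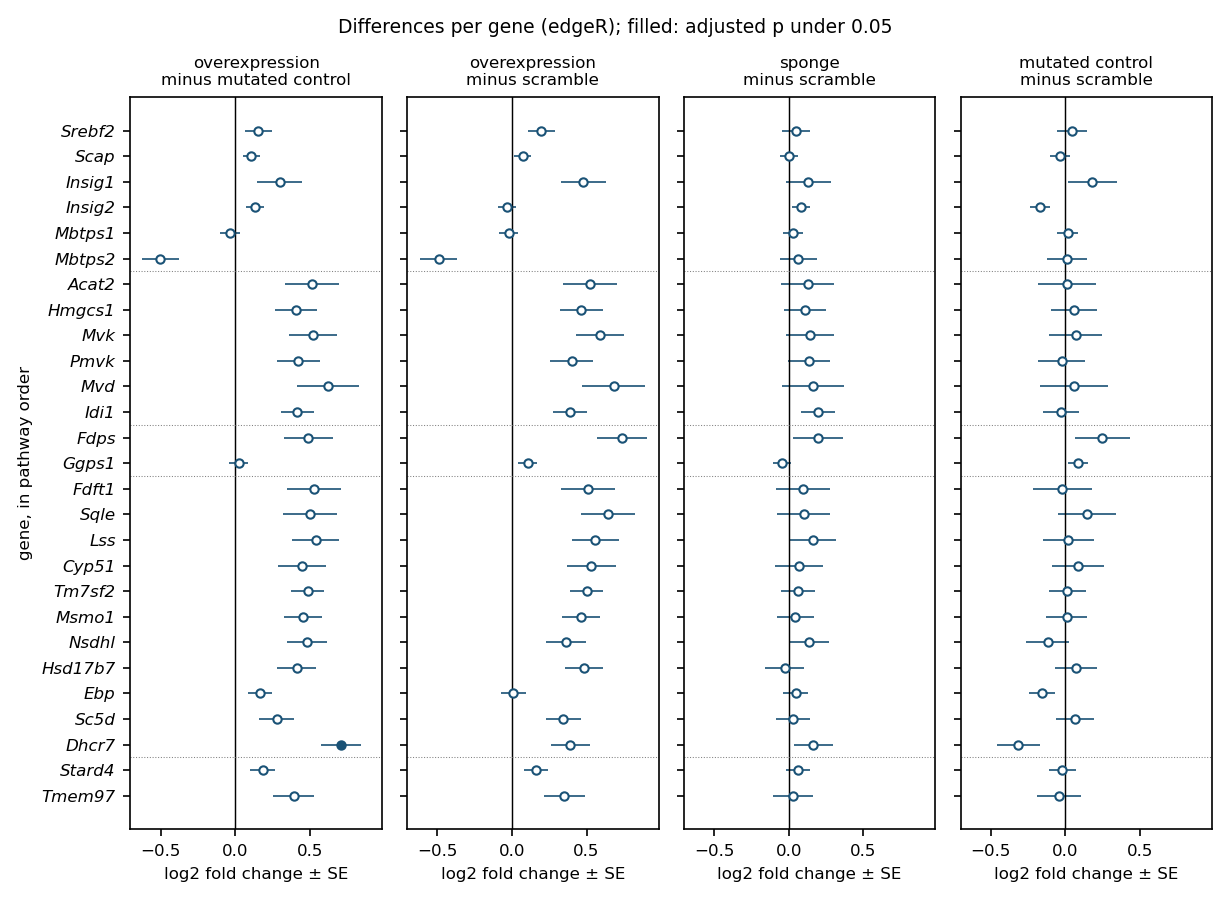
Log2 fold changes with their standard errors for the 27 genes in 4 comparisons from 1 edgeR fit, with the called gene filled. Enzymes lie to the right of 0 against both controls with overexpression and have a median of 0.11 with the sponge and 0.02 between the controls, and Dhcr7 (0.71) is the filled point.

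Against the scramble control, the overexpression libraries gave a median of 0.40 over the 27 members (24 above 0), and 0 were called by edgeR, beside 0.0444% of all tested genes. At an unadjusted p under 0.05 there were 20 members, 19 of them higher, against 2109 of all tested genes. DESeq2 called 8 higher and 1 lower, beside 1.8% of its genes with an adjusted p. The groups did not overlap in 21 members with overexpression higher, beside 15.1% of all tested genes, and in 1 with it lower, beside 15.9%. Largest were Fdps at 0.74 ± 0.17, Mvd at 0.68 ± 0.21 and Sqle at 0.64 ± 0.18 (log2, SE), with edgeR adjusted p = 0.183, 0.251 and 0.210. Both comparisons share the same 3 overexpression libraries. All 3 overexpression libraries were above all 4 control libraries in 21 of 27 members, beside 9.13% of all tested genes, and in 18 of 19 enzymes. They were below all 4 in Mbtps2, beside 8.54%. They were above all 7 other libraries in 6 members, beside 3.54% of all tested genes: Fdps, Ggps1, Lss, Tm7sf2, Msmo1 and Hsd17b7.

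With the sponge, no member was called against scramble by edgeR, beside 0% of all tested genes, and every adjusted p was 1. No member had an unadjusted p under 0.05, against 368 of all tested genes, and neither DESeq2 (0.00634% of all tested genes) nor limma-voom called one. The median difference was 0.08, with 25 of 27 above 0. The sponge libraries did not overlap scramble on the higher side in 1 member, Insig2 (0.08 ± 0.06), beside 6.9% of all tested genes, and on the lower side in 0, beside 8.3%. Largest were Idi1 at 0.20 ± 0.11 and Fdps at 0.20 ± 0.17, while Srebf2 was at 0.05 ± 0.09, Insig1 at 0.13 ± 0.15, Mbtps2 at 0.06 ± 0.12 and Dhcr7 at 0.17 ± 0.13 (log2, SE). Without the 2 libraries of the joined field the median was -0.07.

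The difference of the effects, overexpression minus mutated control less sponge minus scramble, was tested as an interaction. No member passed, beside 0% of all tested genes, and 5 had an unadjusted p under 0.05 (4 higher), against 1271 of all tested genes. DESeq2 called 0 members as well, beside 0.369% of its genes. The median was 0.30. It was 0.48 without the 2 libraries of the joined field, 0.47 without sponge library 3 and 0.17 without sponge library 2. Dhcr7 had 0.54 ± 0.19 and Mbtps2 -0.56 ± 0.18 (log2, SE; edgeR adjusted p = 0.525 and 0.460).

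The 2 control groups differed little as a module. Mutated control minus scramble had a median of 0.01 over the members, 17 of them above 0, and 0 were called by edgeR, beside 0.0254% of all tested genes, with 1 at an unadjusted p under 0.05 (Insig2, -0.17 ± 0.07). Libraries did not overlap in 6 members with the mutated control higher, beside 24.1%, and in 6 with it lower, beside 24.2%. Srebf2, Insig1 and Mbtps2 had 0.04 ± 0.10, 0.18 ± 0.16 and 0.01 ± 0.14.

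The enzymes also differed between libraries of 1 group, most in the sponge group. The mean over the 19 enzymes of log2 CPM minus each gene's mean was 0.33, 0.41 and 0.12 with overexpression, -0.15 and -0.14 in the mutated control, -0.06, -0.34 and 0.17 with the sponge and -0.21 and -0.12 in the scramble control. Sponge library 2 was the lowest of its group in 19 of 19 enzymes and sponge library 3 the highest in 17. Sponge library 3 over sponge library 2 had a median of 0.55 over the enzymes (0.10 to 0.88), against -0.00 over all tested genes. In 13 of 19 enzymes sponge library 3 was above the lowest overexpression library, and overexpression library 3 was the lowest of its group in 15. Mbtps2 was highest in sponge library 2 and lowest, within that group, in sponge library 3, the reverse of the enzymes. The rank correlation of deviations with exonic length over 15767 genes was -0.27, 0.08 and 0.20 in overexpression libraries 1 to 3 and 0.12, 0.08 and -0.26 in sponge libraries 1 to 3. Its part in the enzyme levels was not tested. Members were longer than tested genes (median 4415 against 3661 exonic bases), and their median overexpression minus mutated control was 0.42, 0.42 and 0.18 for short, middle and long genes (equal parts of the tested genes by length), against 0.02, 0.04 and -0.06 for tested genes.

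**Figure D5:**
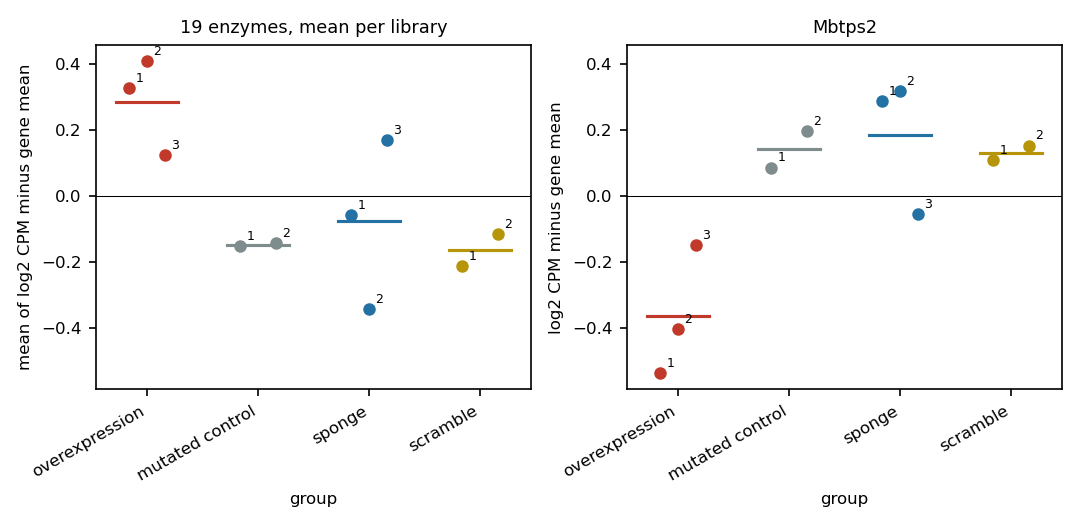
Left, mean over 19 enzyme genes of log2 CPM minus each gene's mean over 10 libraries, per library. Right, the same measure for Mbtps2; numbers mark libraries, lines mark group means, and sponge library 3 stands high on the left (0.17) and low within its group on the right.

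Lists of neighbouring functions were read beside the pathway. In overexpression minus mutated control edgeR called 0.539% of all tested genes, a share at which lists this short can hold 0 calls. In the list of 16 other SREBP processing and sterol sensing genes 0 were called by edgeR in overexpression minus mutated control, and the median was -0.00. Among 14 users of mevalonate products, such as dolichol and coenzyme Q synthesis, 0 were called and the median was 0.06. Among 15 tested genes of sterol transport, storage and uptake, 1 fell and 0 rose (median -0.08): Cd36, a scavenger receptor, averaged 583 ± 23.2 CPM with overexpression and 755 ± 6.27 CPM in the mutated control (-0.37 ± 0.06, edgeR adjusted p = 0.0300). Cd36 had 560 and 570 CPM in the scramble control, and its difference against scramble was 0.04. Soat1, which esterifies cholesterol for storage, had -0.30 ± 0.08 (adjusted p = 0.125).

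Among 11 tested genes of the list of LXR receptors, their targets and oxysterol enzymes, 0 were called and the median was -0.07. The log2 differences ran in both directions, from -0.68 to 0.87. At an unadjusted edgeR p under 0.05 there were 3 genes, 1 of them higher, against 2874 of all tested genes. Here and in the lists that follow, the share called over all tested genes was 0.539%. Abca1, the exporter, had 431, 605 and 779 CPM with overexpression, 943 and 998 CPM in the mutated control, 786, 864 and 526 CPM with the sponge, and 722 and 793 CPM in the scramble control (-0.68 ± 0.23, edgeR adjusted p = 0.173). Its overexpression libraries were below the mutated control but overlapped scramble, and sponge library 3 was the lowest of its group. Among 16 tested genes of SREBP1 and fatty acid synthesis 0 were called (median 0.19), with Scd1, a fatty acid desaturase with few counts (0.347 CPM with overexpression and 0.828 CPM in the mutated control), at -1.29 ± 0.33, Srebf1 at 0.35 ± 0.10 and Fasn, fatty acid synthase, at 0.32 ± 0.12. Of 12 proliferation genes 2 rose and 0 fell (median 0.12): Aurkb by 0.47 ± 0.07 and Rrm2 by 0.42 ± 0.06 (edgeR adjusted p = 0.0167 and 0.0241). In the same list the mutated control minus scramble had a median of -0.12. For overexpression minus scramble 0 passed, beside 0.0444% of all tested genes.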

How the data were processed

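The members and lists were chosen with earlier results of these data known. The deposited values are raw counts, whole numbers for each gene. Per the file headers, the authors counted read pairs with featureCounts 2.0.1 on GENCODE vM30, with strand setting 0, so strand does not separate reads where genes overlap, and the command sets no option to count a read for more than 1 gene. Trimmomatic, FastQC 0.11.6, STAR 2.7.6a and the build GRCm38 are named in the submitters' processing notes. The gene coordinates are printed as deposited, and sequences come from GRCm38.p6. They are not on a common build: the deposited starts and ends of members differ from those of GENCODE vM21.

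Lines have 15 fields under 16 names, because 2 libraries share a field. Each joined count was split at the likeliest place (negative binomial, dispersion 0.1, ratio at least 100), which left out 51 genes and no member. On 56 pairs of intact libraries joined on purpose, at least 99.987% of genes were right and 0 members wrong. The group of the scramble libraries is certain, and their replicate number comes from header order. The header names 12 libraries, and 10 are analysed here.

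The titles call libraries biological replicates, and how cultures were separated is not given, so a p-value reflects only how these libraries spread. All 10 libraries entered 1 fit in edgeR 4.0.16 (quasi-likelihood, robust, TMM, filter by group) in R 4.3.3, with 6 residual degrees of freedom. Benjamini-Hochberg values are over 15767 genes at a threshold of 0.05. The SE is the size of the log2 fold change over the square root of F. TPM used the exonic length in the table. Alternatives were DESeq2 1.42.0, limma-voom 3.58.1, DESeq2 size factors, no filter, the 2 groups compared alone, replicate blocks, single libraries left out, and both joined libraries left out. The edgeR, DESeq2 and limma-voom fits at default settings were run on simulated data for overexpression minus mutated control and sponge minus scramble. The other settings, the difference of effects and the sequence searches were not. By the rule for named genes, values per library are given for members called in any comparison and for the 1 to 3 members of each role with the smallest p in overexpression minus mutated control, and up to 3 genes per other list are named.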

Additional observations from a re-analysis of the deposited data

How the results depend on the processing

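Medians over the members kept their direction in overexpression minus mutated control and minus scramble under every alternative run, but the number of members called depends on the tool. In overexpression minus mutated control, DESeq2 called 6 higher and 1 lower, no filter on low counts 19 and 1, and DESeq2 size factors 0 higher (Dhcr7 adjusted p = 0.0506). In overexpression minus scramble, DESeq2 called 8 higher and 1 lower (234 of all genes) and no filter 19 and 1 (747). For the difference of effects, no filter called 2 higher and 1 lower (331 of all genes). With only the 2 groups compared, mutated control minus scramble called 1 lower (Dhcr7) and 574 of all genes, against 4 in the fit of all libraries. The cause was not tested. Over all tested genes, overexpression minus mutated control called 85, against 500 with DESeq2 and 1390 with no filter.

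Leaving out single libraries gave 0 to 4 members called higher and 0 to 1 lower in overexpression minus mutated control, beside 0 to 279 of all genes. It was 4 higher (252 of all genes) without sponge library 3 and 2 (279) without overexpression library 3. The medians ranged from -0.0278 to 0.227 for sponge minus scramble, 0.17 to 0.47 for the difference of effects and -0.03 to 0.05 for mutated control minus scramble. Signs turned for Ebp (-0.0698 to 0.0927) and Mbtps1 (-0.0521 to 0.0337) in overexpression minus scramble and for Mbtps1 (-0.0562 to 0.0196) in overexpression minus mutated control. Without sponge library 3 alone, 16 of 27 members turned sign in sponge minus scramble. Without scramble library 1 alone, 8 of 27 turned in mutated control minus scramble. Ranges follow only for members whose differences in these comparisons are given above. In sponge minus scramble, signs turned for Insig1 (-0.0392 to 0.277), Mbtps2 (-0.00333 to 0.172) and Srebf2 (-0.0184 to 0.126). In mutated control minus scramble they turned for Mbtps2 (-0.0498 to 0.0646) and Srebf2 (-0.0263 to 0.112).

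Without both libraries of the joined field, 17 of 27 members turned sign in sponge minus scramble and 8 in mutated control minus scramble. The sponge values were then -0.076 for Srebf2, -0.131 for Insig1, -0.117 for Fdps and -0.0411 for Dhcr7, with a median of -0.0714, and the mutated control values were -0.0282 for Srebf2 and -0.0136 for Mbtps2. The median of the difference of effects was 0.48.

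Whether replicate numbers pair the libraries was not settled. Of 13 pairs with the same title number, 1 had a correlation of deviations over 0.1 (-0.41 to 0.16). Of 13 with the same description number 0 did (-0.41 to 0.10). Deviations within a group of 2 libraries mirror each other, so these pairs are not independent and the check cannot decide the question. With the replicate block by title or description 0 members were called higher in overexpression minus mutated control, beside 0 of all tested genes. Under the block by title Ebp was at -0.0175, and under the block by description Mbtps1 at 0.00278, both in overexpression minus scramble. Groups of 2 or 3 libraries limit the precision of every difference given.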
